A study of Mus musculus with 6 samples.

Results

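The genes of the translation initiation factors were compared between embryonic stem cells lacking Hoxd12 and wild-type embryonic stem cells. They were taken as the autosomal protein-coding genes of the mouse annotation GENCODE M21 whose symbol is Eif followed by a digit. Eif4g2 and the kinase genes named Eif2ak were left out. This gave 47 genes of 55450 in the files, by a rule that uses no measured value. By symbol, 4 belonged to eIF1, 4 to eIF2, 5 to eIF2B, 14 to eIF3, 15 to eIF4, 4 to eIF5 and 1 to eIF6. The symbols also gather some proteins that are not subunits of the factor they are named after, and these are described as such where they appear.

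Initiation factors bring the initiator tRNA, the messenger RNA and the ribosomal subunits together at the start codon. eIF2 carries the initiator tRNA and is recharged with GTP by eIF2B, eIF4 proteins bind the cap of the message and unwind it, and eIF3 holds the parts of the complex on the small subunit. Embryonic stem cells divide quickly and are known to keep protein synthesis under tight control, with eIF4E held by its inhibitory binding proteins and eIF2 by phosphorylation.

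Poly(A) RNA was profiled in 3 libraries of Hoxd12-/- embryonic stem cells and 3 libraries of wild-type embryonic stem cells. Per the labels, both were C57BL6 cells from the E3.5 embryo and grew in mES+2i medium, where 2i is a mixture of kinase inhibitors that keeps the cells naive. Neither the way Hoxd12 was disrupted nor the number of clones or cultures behind each group is given in the sources used here. The p-values therefore reflect the spread among libraries of a group, and that spread may be technical. Library totals lay between 5412577 and 6280934 expected counts. Below, levels within a gene are in CPM (counts scaled to TMM-adjusted library sizes) and levels between genes in TPM (transcripts scaled by length and library size). At these depths 3 counts correspond to 0.462 to 0.567 CPM, for counting error only.

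Hoxd12 itself had 0 counts in all 6 libraries, so its loss was not detectable at this depth and it did not check the genotype labels. All 10 embryonic stem cell markers were measured, with summed levels of 8999 to 9495 CPM in the knockout and 8823 to 9431 CPM in the wild type. These sums were mostly Dppa5a and Pou5f1, which were not called, while Nanog fell by 23.5% (edgeR adjusted p = 0.00167) and Zfp42 was 22.0% higher (edgeR adjusted p = 1.43e-05). Summed fibroblast markers were at 4.16 to 5.70 CPM and 7.17 to 9.95 CPM, with Col3a1, Dcn, Lum and Postn at 0 in every library. Thy1, the only fibroblast marker with enough counts to be tested, fell by 49.1% (edgeR adjusted p = 0.00859). Trophectoderm markers summed to 43.4 to 47.6 CPM and 49.2 to 55.5 CPM, neural markers to 27.5 to 29.3 CPM and 24.2 to 25.9 CPM, and endoderm markers to 0.770 to 1.60 CPM and 1.03 to 2.45 CPM. The part of these differences in the results below was not tested.

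Of the 47 genes, 45 had enough counts to be tested, and Eif4e3 and Eif4e1b did not. By edgeR's quasi-likelihood test with Benjamini-Hochberg adjustment over all genes at 0.05, 22 fell in the knockout, 5 rose and 18 did not pass. Among all 12891 tested genes, 14.4% fell, 12.1% rose and 26.5% were called in all. The initiation factor genes thus had 48.9% lower and 11.1% higher calls. Their median log2 fold change was -0.13, and that of all tested genes was 0.02. The changes were small. Among the lower genes Eif4g1 fell by 8.29% and Eif5a fell by 25.1%, the smallest and largest of these changes, and 0 of the 45 reached a 2-fold change in either direction. The median absolute log2 fold change of the called initiation factor genes was 0.23, against 0.37 for all called genes. In all 27 called genes the knockout and wild-type libraries did not overlap. This also held for 4 genes that were not called, making 68.9% of those tested, where 39.7% of all tested genes had groups that did not overlap.

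**Figure D1:**
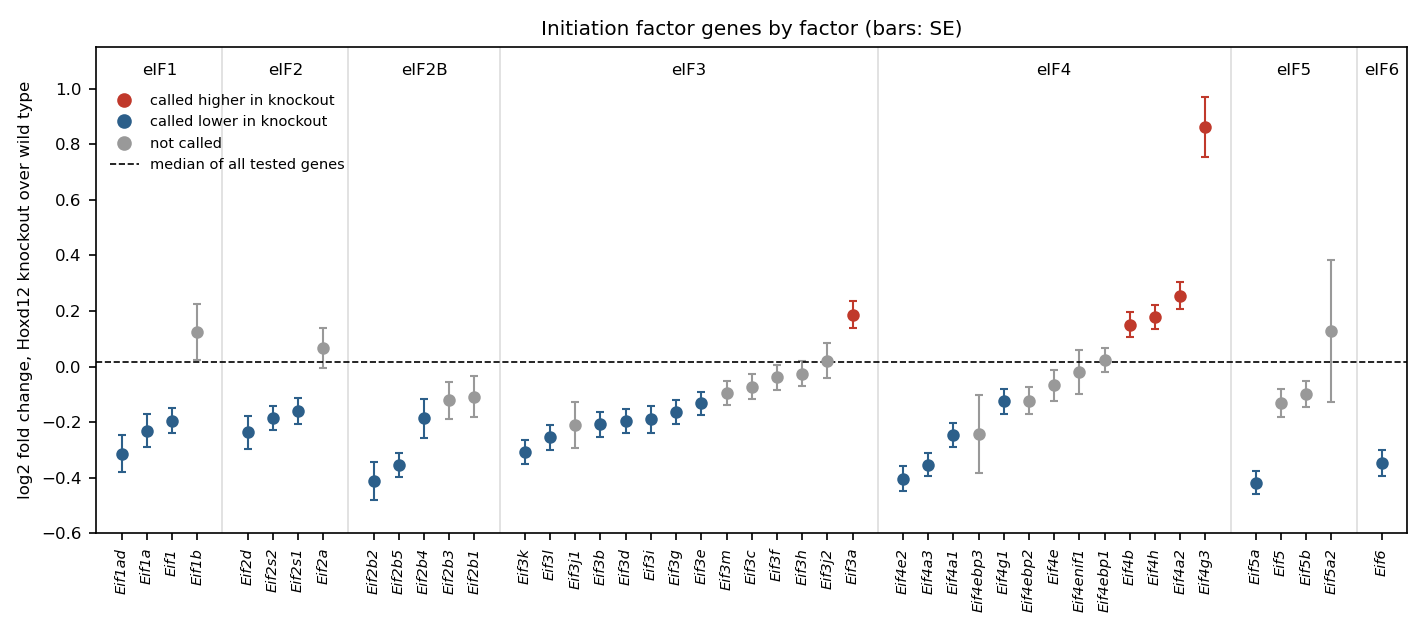
Log2 fold change of each tested initiation factor gene (vertical axis, knockout over wild type, 3 libraries each) with its standard error, arranged by factor along the horizontal axis. Most points lie below the dashed line of all tested genes, and Eif4g3 at 0.86 stands above the others.

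Initiation factor genes are abundant, and in these libraries abundant genes fell more often than rare ones. At 300 TPM or more, 54.7% of the 437 tested genes were lower and 7.78% higher, with a median log2 fold change of -0.16. Of the 7 initiation factor genes at that level, 6 fell and 0 rose. Between 100 and 300 TPM, 43.9% of all 752 genes fell and 13.4% rose, and of 17 initiation factor genes 10 fell and 3 rose. Between 30 and 100 TPM the shares were 26.1% and 14.1% of 1890 genes, with 6 lower and 1 higher of 15 initiation factor genes. The median of the initiation factor genes was -0.19, -0.13 and -0.12 in these ranges, beside -0.16, -0.11 and -0.05 for all genes. Lower calls thus made up 85.7%, 58.8% and 40.0% of the initiation factor genes in these ranges, each above the share among all genes of like level. Below 30 TPM there were too few initiation factor genes to compare shares. Between 10 and 30 TPM 0 of 3 fell, beside 12.1% of all genes, and below 10 TPM 0 of 3, beside 6.5%. The medians of these genes were -0.12 between 10 and 30 TPM and 0.13 below 10 TPM, beside 0.03 and 0.07 for all genes. These differences were not tested. The ranges were chosen after the values were seen.

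**Figure D2:**
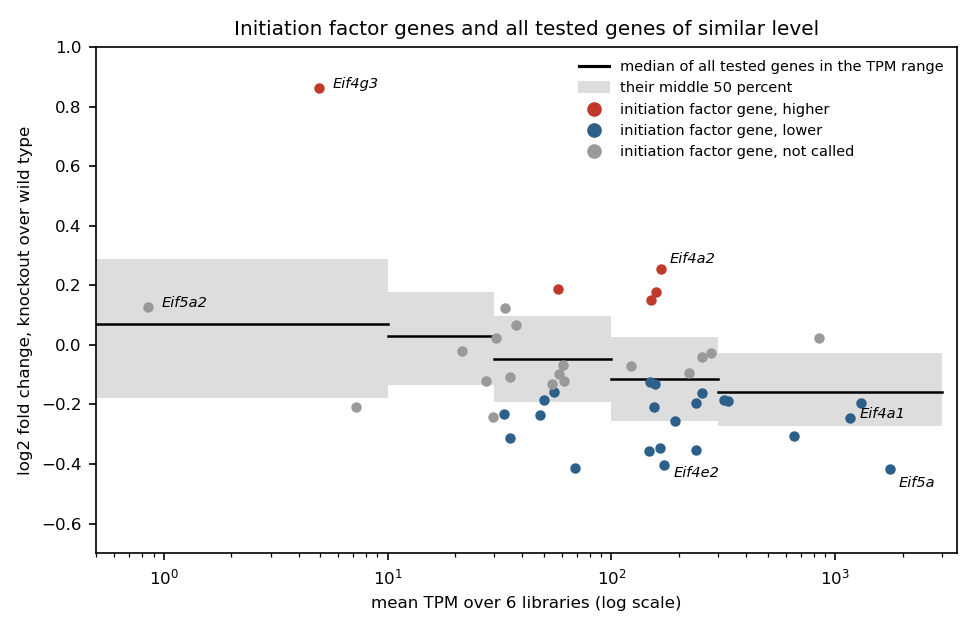
Log2 fold change (vertical axis) against mean TPM over the 6 libraries (horizontal log axis) for each tested initiation factor gene. Black lines and grey bands give the median and middle 50% of all tested genes in 5 ranges of TPM. The median of all genes goes from 0.07 in the lowest range to -0.16 in the highest. Among the genes outside the bands of their ranges are Eif5a and Eif4e2 below and Eif4g3 and Eif4a2 above, with other genes on both sides.

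For each factor below, the background is 14.4% lower and 12.1% higher of all tested genes, with larger lower shares among abundant genes. The factor eIF1 with eIF1A keeps the small subunit scanning until the start codon is found. Of the 4 eIF1 genes, 3 fell and 0 rose, with a median log2 fold change of -0.21. Eif1, the most abundant, was at 741, 768 and 701 CPM in the knockout and at 819, 846 and 863 CPM in the wild type. Its log2 fold change was -0.19 (SE 0.046, edgeR adjusted p = 0.00156). Every knockout library of Eif1 was below every wild-type library, but after correction for gene length and GC content its log2 fold change was -0.05 and was not called (edgeR adjusted p = 0.48).
Eif1ad, which encodes a protein with an eIF1A-like domain, had the smallest p of the group. It was at 69.8, 83.2 and 74.8 CPM in the knockout and at 89.6, 95.0 and 97.6 CPM in the wild type, a log2 fold change of -0.31 (SE 0.066, edgeR adjusted p = 0.000471). The groups did not overlap, but on TPM the log2 fold change was -0.03 and was not called, and 15.3% of the gene's exon bases overlap Banf1 on the other strand. Eif1a, an autosomal gene for eIF1A, fell by 0.23 on the log2 scale and was not called on TPM, where it was at -0.10.
Eif1b, a close relative of Eif1, was at 37.6, 30.1 and 34.8 CPM in the knockout and at 28.8, 34.0 and 31.4 CPM in the wild type. Its groups overlapped, and its log2 fold change of 0.12 (SE 0.101) did not pass.

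Of the eIF2 genes, 3 of 4 fell and 0 rose, with a median of -0.17. Eif2s2, which encodes the beta subunit, was at 769, 731 and 744 CPM in the knockout and at 847, 828 and 875 CPM in the wild type. This gave a log2 fold change of -0.18 (SE 0.044, edgeR adjusted p = 0.00191), with no overlap on counts. On TPM it was at -0.07 and was not called (limma adjusted p = 0.433). Eif2s1 encodes the alpha subunit, whose phosphorylation lowers initiation under stress.
Eif2s1 was at 163, 170 and 169 CPM in the knockout and at 191, 182 and 187 CPM in the wild type. Its log2 fold change was -0.16 (SE 0.046, edgeR adjusted p = 0.00946). The groups did not overlap on counts, whereas on TPM its log2 fold change was 0.05. Eif2d, which delivers tRNA by another route and is no subunit of eIF2, fell by 0.24 on the log2 scale and was at -0.13 on TPM, where it was not called. Eif2a, also no subunit of eIF2, was at 0.07 and was not called.

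All 5 subunit genes of eIF2B, the exchange factor that recharges eIF2 with GTP, had negative log2 fold changes, and 3 of them passed the test. Their median was -0.19. Eif2b5 encodes the catalytic epsilon subunit (chromosome 16, 20498817 to 20509323, GRCm38).
Eif2b5 was at 207, 199 and 199.97 CPM in the knockout and at 246, 266 and 263 CPM in the wild type, a log2 fold change of -0.35 (SE 0.044, edgeR adjusted p = 1.64e-07). Eif2b2, the beta subunit of the regulatory core, was at 57.6, 59.0 and 57.7 CPM in the knockout and at 79.5, 78.7 and 73.7 CPM in the wild type. This gave a log2 fold change of -0.41 (SE 0.067, edgeR adjusted p = 1.54e-05). In both genes the lowest wild-type library lay well above the highest knockout library.
Eif2b4, the delta subunit, was called at -0.19 with an adjusted p of 0.0428 by edgeR, and the call was lost in 12 of 19 alternative settings. These included the removal of any 1 library except knockout library 2. Eif2b4 shares exon bases with Snx17 on the other strand. Eif2b3, the gamma subunit, at -0.12, and Eif2b1, the alpha subunit, at -0.11, were not called. On TPM, the summed level of the 5 genes was 324 ± 15.2 (SD, n = 3) in the knockout and 400.1 ± 3.81 (SD, n = 3) in the wild type, or 81.1%.

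eIF3, the largest of the factors, had 7 genes lower and 1 higher of 14, with a median of -0.15. Most of these genes were above 100 TPM. Of all tested genes, 43.9% fell between 100 and 300 TPM and 54.7% at 300 TPM or more, with medians of -0.11 and -0.16. The lower genes took in several parts of the complex. Eif3k and Eif3l encode neighbouring subunits at the edge of the complex. Eif3k was at 412, 432 and 404 CPM in the knockout and at 518, 507 and 518 CPM in the wild type, a log2 fold change of -0.31 (SE 0.044, edgeR adjusted p = 2.19e-06).
Eif3l was at 353, 349 and 362 CPM in the knockout and at 412, 414 and 443 CPM in the wild type, a log2 fold change of -0.25 (SE 0.045, edgeR adjusted p = 4.99e-05). On counts the groups of both genes were well apart. On TPM Eif3k was still called, while Eif3l was at -0.13 with groups that overlapped and was not called (limma adjusted p = 0.197). Among the subunits that form a mobile module around the RNA channel, Eif3b fell by 0.21, Eif3i by 0.19 and Eif3g by 0.16 on the log2 scale. None of the 3 was called on TPM, where Eif3b was at 0.01, Eif3i at -0.07 and Eif3g at -0.04. Eif3i and Eif3g were not called after the length and GC correction either.
Eif3d, a subunit that can itself bind the cap, fell by 0.20 and was at -0.07 on TPM, where it was not called, and Eif3e fell by 0.13 with a call that was lost in 9 of 19 alternatives. Eif3a, the scaffold subunit and the only eIF3 gene called higher, was at 229, 209 and 237 CPM in the knockout and at 205, 191 and 198 CPM in the wild type. Its log2 fold change was 0.19 (SE 0.048, edgeR adjusted p = 0.00359). The groups did not overlap, and after correction for gene length and GC content it was not called, in a fit that called 8.19% of all genes higher and 3 initiation factor genes. The median log2 fold change of the 22 tested genes within 5 Mb of Eif3a was 0.16.
The genes not called were Eif3c, Eif3f, Eif3h, Eif3m, Eif3j1 and Eif3j2. Eif3m, at -0.10, and Eif3j1, at -0.21 with an edgeR adjusted p of 0.056, had groups that did not overlap. Eif3j1 and Eif3j2 encode a loosely bound subunit and are 99.4% identical over 2379 bases of transcript, so their reads may have been divided between them by the authors' counting.

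In eIF4, 4 genes rose and 4 fell of 13 tested, and the median was -0.07. Here genes of like function moved in opposite directions. Among them were the eIF4A helicases that unwind the message. The eIF4G scaffolds, which tie cap, helicase and ribosome together, also had opposite calls. Of these, the lower call of Eif4g1 was lost in 10 of 19 alternatives.

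Eif4a1, the main helicase gene (chromosome 11, 69666936 to 69672423, GRCm38), was at 1885, 1876 and 1739 CPM in the knockout and at 2115, 2176 and 2227 CPM in the wild type. This gave a log2 fold change of -0.24 (SE 0.043, edgeR adjusted p = 4.58e-05). Eif4a2, its close relative (chromosome 16, 23107444 to 23114136), was at 368, 343 and 368 CPM in the knockout and at 308, 281 and 315 CPM in the wild type, a log2 fold change of 0.26 (SE 0.048, edgeR adjusted p = 0.000104). The groups did not overlap for either gene, one being lower and the other higher in every knockout library. Of the exon bases of Eif4a2, 3.63% overlap Rfc4 on the other strand.
The ratio of Eif4a1 to Eif4a2 went with this. On the log2 CPM scale it was 2.36, 2.45 and 2.24 in the knockout and 2.78, 2.95 and 2.82 in the wild type, a difference of -0.50. The exact two-sided permutation p was 0.1, the smallest that 3 against 3 libraries can give, and 0.133 after adjustment over the 8 pairs of relatives compared. Pseudogenes matched by sequence to Eif4a1 held counts equal to 26.5% of those of Eif4a1, at up to 99.9% identity, so reads may have been divided between them. With those counts added, the log2 fold change of Eif4a1 was -0.23 (edgeR adjusted p = 2.86e-05).
Eif4a3, whose protein sits in the exon junction complex and not in the cap-binding complex, was at 217, 219 and 217 CPM in the knockout and at 277, 278 and 280.2 CPM in the wild type. Its log2 fold change was -0.35 (SE 0.042, edgeR adjusted p = 7.32e-08), with groups far apart. The helicase cofactors Eif4b and Eif4h both rose, by 0.15 and 0.18 on the log2 scale. Eif4b was not called after the length and GC correction, which Eif4h passed.

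Eif4g3 showed the largest change of the initiation factor genes tested. It encodes a less abundant scaffold (chromosome 4, 137993022 to 138208508, GRCm38). It was at 41.1, 35.0 and 38.3 CPM in the knockout and at 20.6, 23.6 and 18.7 CPM in the wild type. This gave a log2 fold change of 0.86 (SE 0.107, edgeR adjusted p = 1.61e-07), an increase of 81.9%, and the lowest knockout library stood well above the highest wild-type library. The median of the 135 tested genes within 5 Mb was 0.00.
Eif4g1, the main scaffold gene, was at 360.0, 343 and 368 CPM in the knockout and at 392.4, 390 and 385 CPM in the wild type. Its log2 fold change was -0.12 (SE 0.044, edgeR adjusted p = 0.0337). The groups did not overlap, but the call was lost in 10 of 19 alternatives. Among them were DESeq2, TPM and the removal of knockout library 1 or 2 or of any wild-type library. The fall of Eif4g1 was also close to that of comparable genes. The median of the 92 tested genes within 5 Mb was -0.09, and that of all tested genes between 100 and 300 TPM was -0.11. The log2 CPM ratio of Eif4g1 to Eif4g3 was 3.13, 3.29 and 3.26 in the knockout and 4.25, 4.05 and 4.36 in the wild type, a difference of -0.99 (exact permutation p = 0.1, adjusted 0.133).

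The cap-binding genes differed as well. Eif4e2 encodes 4EHP, a cap-binding protein that does not bind the eIF4G scaffold and is known as a repressor of translation (chromosome 1, 87213914 to 87240488, GRCm38). It was at 180.1, 195 and 181 CPM in the knockout and at 244, 241 and 249 CPM in the wild type, a log2 fold change of -0.40 (SE 0.045, edgeR adjusted p = 1.89e-08). Every knockout library was below every wild-type library.
Eif4e, the main cap-binding protein of initiation, was at 107, 110.2 and 99.1 CPM in the knockout and at 114, 108 and 110 CPM in the wild type. The groups overlapped, and the log2 fold change of -0.07 (SE 0.056) did not pass. The log2 CPM ratio of Eif4e to Eif4e2 had a mean of -1.15 ± 0.045 (SD, n = 3) in the wild type and of -0.81 ± 0.059 (SD, n = 3) in the knockout, without overlap (exact permutation p = 0.1, adjusted 0.133).
Eif4e3, a further relative, was near the floor of detection, at 0.960, 0.756 and 0.462 CPM in the knockout and 0.349, 0 and 0.516 CPM in the wild type, and no fold is given. Eif4ebp1 encodes an inhibitor that holds eIF4E away from the scaffold when mTORC1 is inactive. It was at 781, 784 and 757 CPM in the knockout and at 766, 761 and 760 CPM in the wild type, with groups that overlapped and a log2 fold change of 0.02 (SE 0.043). Eif4ebp2, a second inhibitor, was at 159, 164 and 175 CPM and at 181, 178 and 182 CPM. Its groups did not overlap, but its log2 fold change of -0.12 (SE 0.048, edgeR adjusted p = 0.0561) missed the threshold. Eif4ebp3, which shares 67.3% of its exon bases with another gene on the same strand, and Eif4enif1, the eIF4E transporter gene, were not called.

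**Figure D3:**
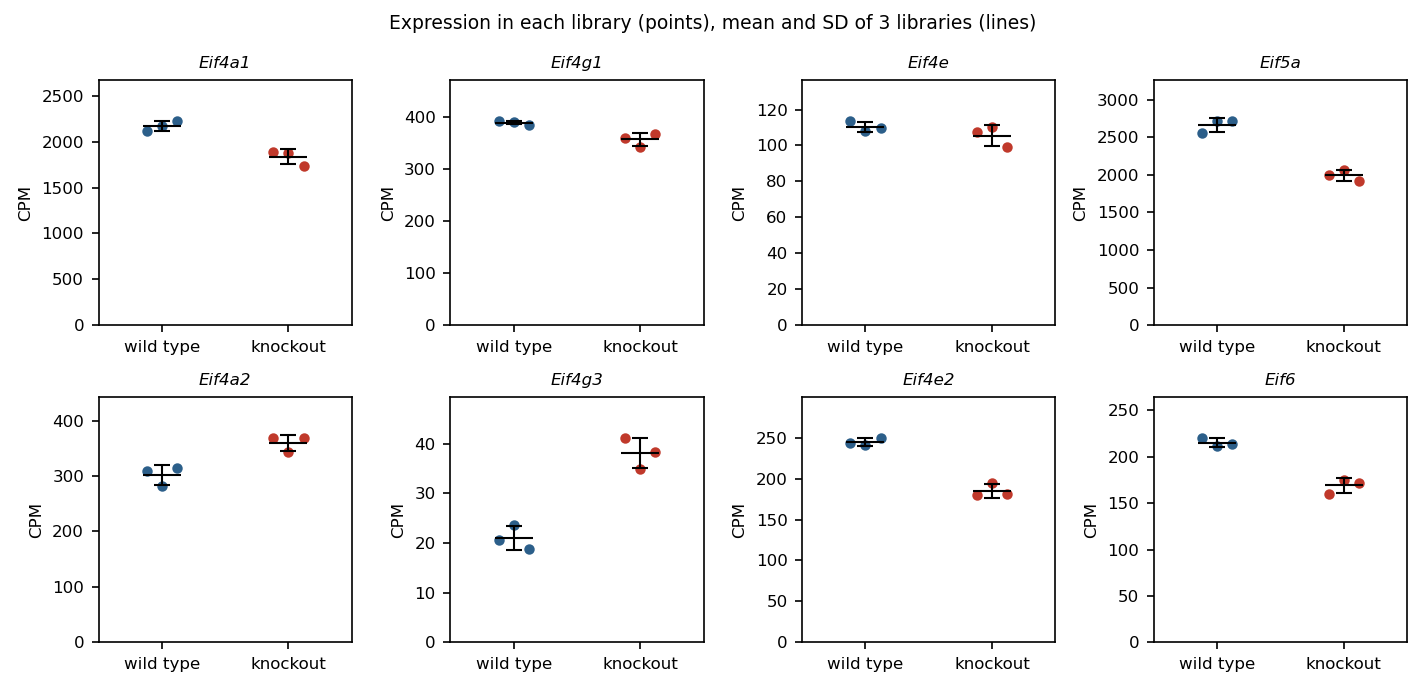
CPM of 8 initiation factor genes (vertical axes from 0) in each of the 3 wild-type and 3 knockout libraries, with mean and SD. Eif4a2 and Eif4g3 are higher in all 3 knockout libraries and Eif4a1, Eif4g1, Eif4e2, Eif5a and Eif6 lower, while the Eif4e groups overlap.

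Of the genes numbered 5, which act when or after the start codon is found or, for eIF5A, mainly during elongation and termination, 1 of 4 fell and 0 rose. Eif5a encodes the protein that carries the modified residue hypusine (chromosome 11, 69916714 to 69921958, GRCm38). It had the smallest p of all initiation factor genes. It was at 1993, 2068 and 1917 CPM in the knockout and at 2550, 2717 and 2717 CPM in the wild type, a log2 fold change of -0.42 (SE 0.042, edgeR adjusted p = 2.92e-09), or a fall of 25.1%. The wild-type libraries were all above every knockout library.
Its relative Eif5a2 was at a low level, with 4.48, 4.73 and 5.23 CPM in the knockout and 4.19, 4.07 and 4.98 CPM in the wild type, with groups that overlapped. Eif5, the GTPase activator of eIF2, had a log2 fold change of -0.13 (edgeR adjusted p = 0.0531), and Eif5b, the factor that joins the ribosomal subunits, one of -0.10. Neither passed.

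Eif6 encodes a protein that keeps the large ribosomal subunit from joining too early and takes part in its assembly (chromosome 2, 155819832 to 155826925, GRCm38). It was at 160.4, 175 and 172 CPM in the knockout and at 220.1, 211 and 214 CPM in the wild type. This gave a log2 fold change of -0.35 (SE 0.046, edgeR adjusted p = 6.04e-07), and the groups were well apart.

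Of the other pairs of relatives, 3 had log2 CPM ratios whose groups did not overlap, each at an exact permutation p of 0.1 (adjusted 0.133). The ratio of Eif5a to Eif5a2 differed by -0.54 between knockout and wild type, that of Eif3j1 to Eif3j2 by -0.23 and that of Eif4ebp1 to Eif4ebp2 by 0.15. The groups overlapped for Eif1 over Eif1b, at -0.31 (exact permutation p = 0.2), and for Eif2s1 over Eif2s2, at 0.03 (exact permutation p = 0.6).

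Of the 27 called genes, 25 kept their sign in every alternative setting that tested them, and Eif2s1 and Eif3b changed sign on TPM. There were 19 settings, of which Eif1, Eif4a1, Eif4a3 and Eif5a entered 18, since chromosome 11 was removed in the other. There were 11 genes called in every setting that tested them but that against a 1.2-fold change. These were Eif4g3, Eif4a2 and Eif4h, which rose, and Eif5a, Eif4e2, Eif4a3, Eif2b5, Eif6, Eif3k, Eif2b2 and Eif4a1, which fell. Eif4g3, Eif4e2 and Eif5a were also called against a 1.2-fold change, a test that 6.25% of all tested genes passed. DESeq2 called 5 higher and 18 lower initiation factor genes, beside 5.44% and 9.98% of all genes. On log2(TPM + 1) limma called 5 higher and 9 lower, all of them also called by edgeR on counts, beside 8.59% and 5.81% of all genes. On that scale the median of all tested genes was itself 0.10 and that of the initiation factor genes -0.05, a difference of -0.14.

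Beside this shift of all genes, TPM and counts can differ for a gene whose mean transcript length differs between libraries, since the deposited length varies from library to library. The shift also stands in genes whose length hardly differed, such as Eif2b1, Eif3c and Eif5b, which were negative on counts and above 0 on TPM. In 6 of the 45 tested initiation factor genes this length differed by 1.1-fold or more with groups that did not overlap, against 5.47% of all tested genes. It was longer in the knockout in 5 of the 45, beside 3.83% of all tested genes, and shorter in 1 of the 45, Eif1ad, beside 1.64%. The threshold was chosen after the values were seen.
For Eif6 the mean length was 1500, 1215 and 1396 bases in the knockout and 1134, 1015 and 1069 bases in the wild type, a ratio of 1.28. For Eif4a3 it was 1250, 1108 and 1175 bases and 1058, 967 and 968 bases, a ratio of 1.18. Per length, both genes thus fell further, with log2 fold changes on log2(TPM + 1) of -0.62 for Eif6 (limma adjusted p = 0.00235) and -0.50 for Eif4a3 (limma adjusted p = 0.000861). Eif4enif1 had a ratio of 1.23, Eif2b4 of 1.204 and Eif2b3 of 1.14. Eif1ad, at 0.90, had shorter mean lengths in every knockout library. Which isoforms were read cannot be seen in gene totals.

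**Figure D4:**
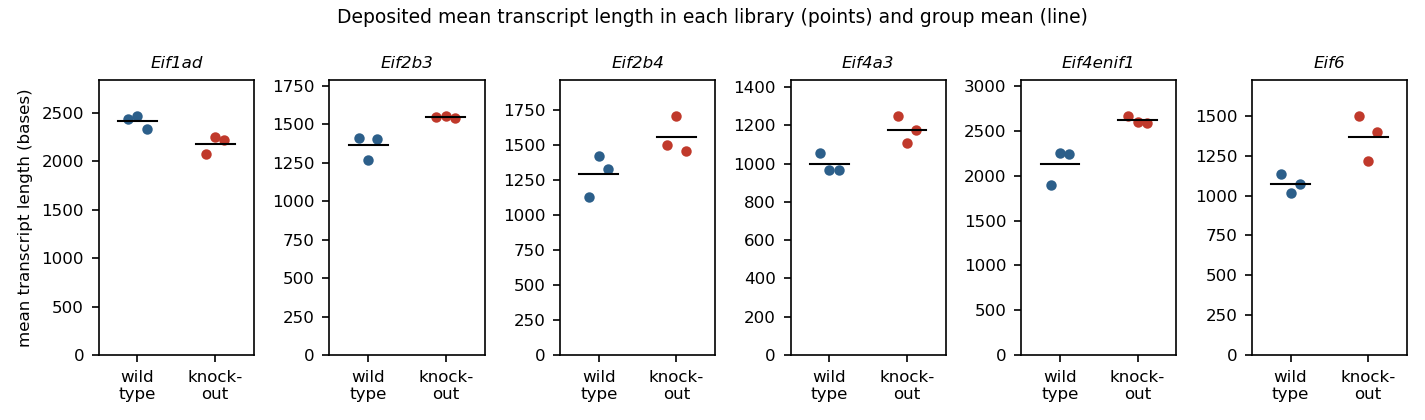
Deposited mean transcript length (vertical axes, bases, from 0) of the 6 initiation factor genes whose length differed by 1.1-fold or more between groups, in each library and as group means. Eif1ad is shorter in the knockout libraries and the other genes are longer, and no group overlaps.

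Levels per length spanned a wide range within each factor. Eif5a was the most abundant at a mean of 1752 TPM over the 6 libraries (range 1528 to 1966), then Eif1 at 1299 (1176 to 1407), Eif4a1 at 1163 (1060 to 1237) and Eif4ebp1 at 845 (794.5 to 905). These 4 genes stood in the same order in the knockout and in the wild type, with no overlap between neighbours within either group. Within eIF2, Eif2s2 was at 319 TPM and Eif2s1 at 55.6 TPM. Among the eIF2B genes Eif2b5 led at 147 TPM and Eif2b1 was lowest at 35.4 TPM, and in between Eif2b2 overlapped Eif2b3 within each group. Eif2b3 overlapped Eif2b4 in the wild type and not in the knockout.
The eIF3 genes ran from Eif3k at 656 TPM and Eif3i at 331 TPM to Eif3a at 57.6 TPM and Eif3j1 at 7.22 TPM. Eif3f, Eif3g and Eif3d overlapped from each gene to the next in order within both groups, and so did Eif3e and Eif3b. In eIF4 the order after Eif4a1 and Eif4ebp1 differed between the groups. In the wild type it was Eif4a3 at 279.8, Eif4e2 at 194, Eif4g1 at 151, Eif4a2 at 145.5, Eif4h at 142 and Eif4b at 136 TPM. There Eif4a3 and Eif4e2 each stood clear of the next gene, and Eif4g1 overlapped Eif4a2, as did Eif4h. In the knockout the order was Eif4a3 at 197, Eif4a2 at 186, Eif4h at 175, Eif4b at 165, Eif4e2 at 151 and Eif4g1 at 147 TPM, with ranges that overlapped from each gene to the next. Eif4a2 was above Eif4e2 in every knockout library and below it in every wild-type library. Over all 6 libraries Eif4e followed at 60.7 TPM and Eif4g3 at 4.91 TPM. The cap-binding gene Eif4e2 was thus more abundant than Eif4e in every library, with a TPM ratio of Eif4e to Eif4e2 between 0.298 and 0.402.
Summed over all 47 genes, the level was 9968 ± 269 TPM (SD, n = 3) in the knockout and 10828 ± 31.3 TPM in the wild type, or 92.1%. Much of this difference lay in the most abundant genes Eif5a, Eif1 and Eif4a1, all on chromosome 11. They were at 1570, 1234 and 1099 TPM in the knockout and 1935, 1364 and 1227 TPM in the wild type. Eif4ebp1, the next in level, was higher in the knockout, at 880 beside 810 TPM. The genes that fell were shorter than those that rose, with median mean transcript lengths of 1526 and 3476 bases beside 2213 bases over all tested genes. Across the 45 tested genes, as a description, Spearman's rho of log2 fold change was 0.39 with length and -0.45 with GC content. Over all tested genes these were 0.23 and -0.11.

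**Figure D5:**
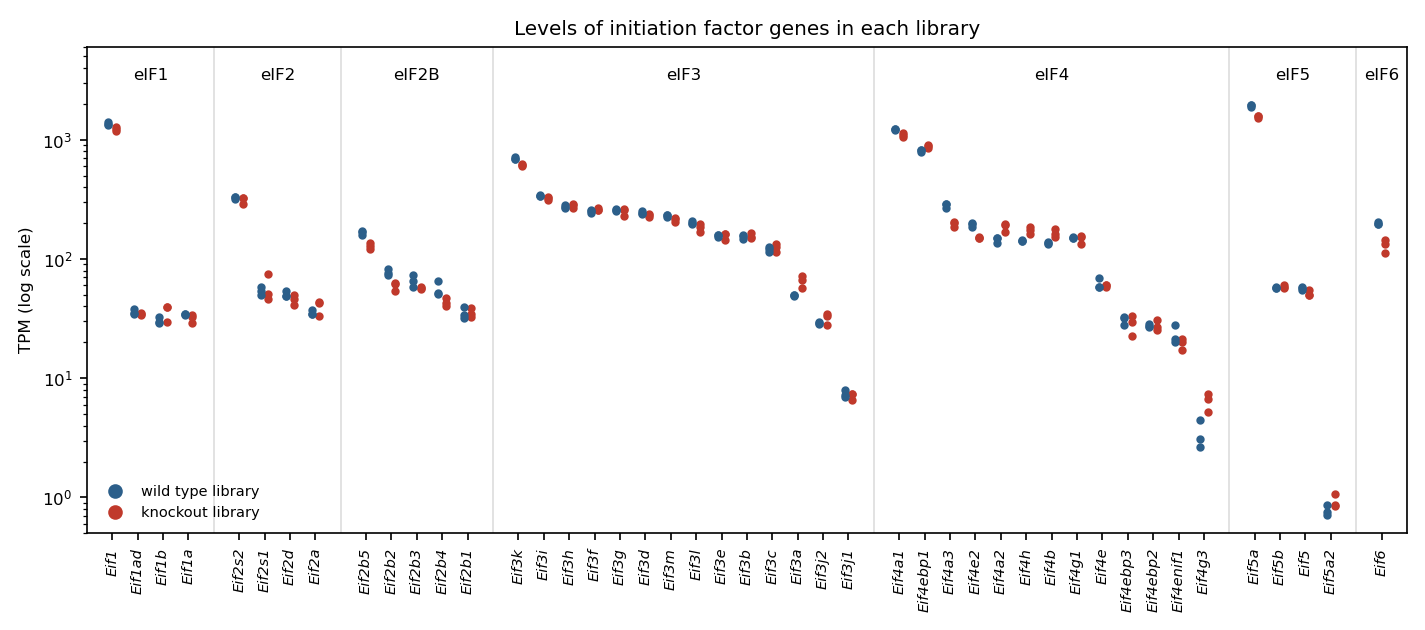
TPM of each tested initiation factor gene in every library (vertical log axis), arranged by factor and by mean level along the horizontal axis. Eif5a, Eif1 and Eif4a1 are above 1000 TPM in all libraries, and Eif5a2 lies near 1 TPM.

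The start sites of a few genes are printed because Eif4a1 and Eif4a2 moved in opposite directions and because Eif5a and Eif4e2 had the smallest p. They were chosen after the values were seen. Each line gives bases just before the RefSeq start, 5′ to 3′ on the gene's strand, that also lie before the GENCODE start. For a gene with several RefSeq starts the most upstream was taken, which need not be the start in use. The build is GRCm38.p6, at chr11:69921959-69922108 on the minus strand for Eif5a, chr11:69672424-69672573 on the minus strand for Eif4a1, chr16:23107318-23107443 on the plus strand for Eif4a2 and chr1:87213761-87213910 on the plus strand for Eif4e2. Capitals mark matches to any of the 8 motifs named below.
Eif5a: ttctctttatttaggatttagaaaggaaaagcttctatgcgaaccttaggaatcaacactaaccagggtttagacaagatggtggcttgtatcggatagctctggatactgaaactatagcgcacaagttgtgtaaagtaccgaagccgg
Eif4a1: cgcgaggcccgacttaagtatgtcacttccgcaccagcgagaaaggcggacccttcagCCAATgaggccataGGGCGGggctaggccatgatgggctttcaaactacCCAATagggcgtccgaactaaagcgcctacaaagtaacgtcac
Eif4a2: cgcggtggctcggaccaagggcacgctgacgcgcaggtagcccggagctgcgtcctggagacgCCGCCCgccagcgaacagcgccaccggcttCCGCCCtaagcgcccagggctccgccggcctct
Eif4e2: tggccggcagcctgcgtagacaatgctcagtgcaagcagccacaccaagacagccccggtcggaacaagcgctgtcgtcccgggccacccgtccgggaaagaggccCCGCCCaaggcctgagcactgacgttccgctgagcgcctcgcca
In these stretches Eif4a1 held 2 CCAAT boxes and 1 GC box, Eif4a2 held 2 GC boxes, Eif4e2 held 1 GC box and Eif5a none. The stretches were 56.7%, 75.4%, 68.0% and 41.3% G and C.

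Promoter windows of 250 bases before the start, again the most upstream, were found for 36 of the 47 genes in RefSeq. Both strands were searched. An E-box (CACGTG), the site of MYC and related factors, was in 7 of the 36 windows, or 19.4%, beside 8.6% of the 9608 tested genes with a window. Those genes were Eif1b, Eif3f, Eif3k, Eif4a1, Eif4g1, Eif4h and Eif5a2. A GC box (GGGCGG) was in 26 windows, or 72.2% beside 60.7%, and a CCAAT box (CCAAT) in 10, or 27.8% beside 37.6%.
An ETS motif (CCGGAAGT) was in 3 windows, or 8.3% beside 6.2%. An NRF1 motif (GCATGCGC) was in 3, or 8.3% beside 4.8%, and a TATA box (TATAAA) in 3, or 8.3% beside 5.9%. A YY1 motif (AAGATGGC) was in 1 window, that of Eif4a1, or 2.8% beside 2.1%, and an ATF4 element (TGATGCAA) in 0 beside 0.5%. A start like that of the TOP messages, a C and at least 4 pyrimidines within 5 bases of the start, was found in 7 of 36 genes, or 19.4% beside 20.4%. These matches are a description of letters, and no test was made on them.

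Whole chromosomes differed between the groups in these libraries, with median log2 fold changes of 0.16 on chromosome 6, 0.17 on chromosome 8 and -0.12 on chromosome 11. Of the initiation factor genes, 5 tested lie on chromosome 11, 1 on chromosome 8 and 0 on chromosome 6. On chromosome 11, Eif1, Eif4a1, Eif4a3 and Eif5a fell and Eif4enif1 did not pass. Around Eif5a the median of the 141 tested genes within 5 Mb was -0.10, around Eif4a1 it was -0.10, around Eif1 -0.14 and around Eif4a3 -0.20, each nearer to 0 than the gene itself. For Eif1 the gap was -0.05, about the SE of the gene. Eif4enif1 was the other way, at -0.02 with a median of -0.18 around it. The 39 genes on other chromosomes held 5 higher and 18 lower calls with a median of -0.13. Among all tested genes of all chromosomes, 12.1% were higher and 14.4% lower. With the genes of chromosomes 6, 8 and 11 removed before scaling, 5 initiation factor genes were higher and 17 lower. Over all genes that fit called 1106 higher and 1428 lower.

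Of 50 further translation genes tested, 10 rose and 6 fell, beside 12.1% higher and 14.4% lower among all tested genes. Their median log2 fold change was 0.00. These counts were less stable, with 5 higher and 3 lower without knockout library 1, 6 and 4 without wild-type library 2, 8 and 3 without wild-type library 1, and 9 and 3 without wild-type library 3. For each list below the background is again 12.1% higher and 14.4% lower of all tested genes by edgeR, and 15.4% called by DESeq2. In the list on eIF2 phosphorylation 4 of 8 rose and 0 fell, and DESeq2 called 2 of the 8. This list holds the eIF2 kinases, phosphatase subunits and the GCN2 regulators Gcn1l1 and Impact. Ppp1r15b, a phosphatase subunit that reverses the phosphorylation, was at 93.6, 92.5 and 88.2 CPM in the knockout and at 65.7, 61.7 and 64.1 CPM in the wild type, a log2 fold change of 0.52 (edgeR adjusted p = 1.16e-07).
Eif2ak3, which encodes the endoplasmic reticulum stress kinase PERK, was at 16.2, 14.9 and 19.2 CPM in the knockout and at 9.78, 10.1 and 10.3 CPM in the wild type, a log2 fold change of 0.74 (edgeR adjusted p = 0.000262). It lies on chromosome 6, one of the chromosomes that were higher as a whole, and it was not called on TPM. In both genes the groups did not overlap. Eif2ak4, the amino acid sensor GCN2, and Impact, which restrains it, were the other two called higher.
Of 7 elongation genes, Eef1a1 rose by 0.27 and Eef2 by 0.30 on the log2 scale, and Eef1d fell by 0.33. Eef1a1, the carrier of aminoacyl-tRNA, was at 12290, 12060 and 12576 CPM in the knockout and at 10388, 10081 and 10200 CPM in the wild type. Eef2, which moves the ribosome along the message, was at 3836, 3753 and 3906 CPM and at 3191, 3056 and 3120 CPM. Both genes were higher in every knockout library than in any wild-type library.
In the list of cap and tail binding genes 1 of 13 rose and 3 fell. Ncbp2, the small subunit of the nuclear cap-binding complex, was at 46.9, 37.4 and 45.6 CPM in the knockout and at 62.9, 60.7 and 55.9 CPM in the wild type, a log2 fold change of -0.46 (edgeR adjusted p = 7.19e-05). Larp1, which binds TOP messages, was at 222, 201 and 228 CPM and at 231, 249 and 240.5 CPM, a log2 fold change of -0.14 (edgeR adjusted p = 0.0233). Neither gene's groups overlapped, though those of Larp1 lay close.
Of 10 scanning, recycling and release genes 2 rose and 2 fell. Abce1, the ribosome recycling factor, was at 181, 163 and 171 CPM in the knockout and at 153, 141 and 156 CPM in the wild type, a log2 fold change of 0.19 (edgeR adjusted p = 0.00472). Etf1, the release factor, was at 222, 225 and 234 CPM and at 253, 247 and 248 CPM, a log2 fold change of -0.14 (edgeR adjusted p = 0.0167). The groups of both were apart. DESeq2 did not call Larp1, Abce1 or Etf1. Of the 9 mTORC1 pathway genes edgeR called 0 and DESeq2 called 0, and 2, Rheb and Rps6kb2, had an unadjusted p under 0.05.
Of the sex-linked relatives outside the rule, Eif2s3y, the Y-linked gene for the gamma subunit of eIF2, rose from 25.3, 23.9 and 23.5 CPM in the wild type to 56.5, 55.0 and 54.8 CPM in the knockout, a log2 fold change of 1.19 (edgeR adjusted p = 1.49e-12). The median of the 12 tested Y-linked genes was 0.45. Eif2s3x, the X-linked copy, at -0.01, and Eif1ax, at -0.11, were not called by edgeR on counts. The result for Eif1ax depended on the method. With the effective length offset it was called higher, at 0.29 (edgeR adjusted p = 0.00845). On log2(TPM + 1) it was also called higher, at 0.41 (limma adjusted p = 0.0238). After the length and GC correction it was called lower. Its mean transcript length was 1819 bases in the knockout and 2371 bases in the wild type.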

How the data were processed

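The deposited files give, per the file headers, the estimated (expected) count, TPM, length and effective length of each gene in each library. The expected counts were made by the authors and are not scaled for depth, and the deposited TPM values correct for transcript length and depth. Bowtie 0.12.2, mm8 and mm10 are listed, with no role, in the submitters' processing notes. Which quantifier, annotation and strand setting were used is not given in the sources used here. Each of the 55450 gene identifiers matched GENCODE M21 (GRCm38), which gave symbols and coordinates, and Gcn1 was matched through a RefSeq synonym.

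Expected counts were rounded to whole numbers and fitted in R 4.3.3 with edgeR 4.0.16 (TMM, filterByExpr, robust quasi-likelihood test, genotype as the only term). P-values were adjusted by Benjamini-Hochberg over the 12891 genes that passed the filter, and genes under 0.05 were called. The common coefficient of variation was 6.74%. Paralogue ratios were compared by exact permutation over libraries. Alternatives were RLE scaling, DESeq2 1.42.0, other count filters, a replicate block, an effective length offset, limma 3.58.1 on log2 TPM with pseudocounts of 1 and 0.1, a loess correction for length and GC content, removal of chromosomes 6, 8 and 11, glmTreat against 1.2-fold, each library left out, and pseudogene counts added. Pseudogenes were matched by blastn 2.17.0 at 80% identity over 200 bases, an alternative added after the data were seen. In a simulation of this comparison over 12891 genes, 6% of genes changed 1.2-fold were called, 62% at 1.5-fold, 76% at 2-fold and 98% at 4-fold, with 5 false calls of 126.

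Named with values in every library were Hoxd12, the 12 called genes with the smallest p, per factor the smallest p and the most abundant gene, the paralogue groups, and the 2 smallest p among the called genes of each other list. The ratio of Eif3j1 to Eif3j2, outside this rule, was added later. The genes and lists were chosen with earlier results of these data known. Ranges of TPM, the length threshold, motifs, printed promoters and the 5 Mb window were chosen after values were seen. Promoter letters are from RefSeq, GRCm38.p6.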

Additional observations from a re-analysis of the deposited data

How the results depend on the processing

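Of 849 checks of single initiation factor genes against their main value, 731 kept direction and side of the threshold, 78 lost the call, 17 gained one and 23 changed sign. The cause of these changes was not tested. To look for pairing, deviations of log2 CPM from the group mean were compared between same-numbered knockout and wild-type libraries. These deviations correlated at 0.0036, 0.0413 and 0.0244, so the library numbers gave no sign of pairing. With the replicate block 1513 genes were higher and 1840 lower, and 5 initiation factor genes were higher and 23 lower.

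DESeq2 called 701 genes higher, and of the other translation genes 5 higher and 2 lower. With no count filter 3 of the other translation genes were lower. With the effective length offset 898 genes were higher. On log2(TPM + 1) 749 genes were lower, with 9 initiation factor genes and 1 other translation gene, and on log2(TPM + 0.1) 738, 9 and 1. With the length and GC correction 3 initiation factor genes were higher and 10 other translation genes lower. Against a 1.2-fold change 273 genes were higher and 533 lower, with 1 and 2 initiation factor genes and 3 and 1 other translation genes. With each library left out in turn, 5 initiation factor genes were higher in every fit and 19 to 22 lower, and 5 to 10 of the other translation genes higher and 3 to 6 lower. Over all genes 1118 to 1423 were higher and 1486 to 1787 lower.

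Medians relative to all genes stayed negative for every factor in every fit run. The reference here is tested genes of all levels, and genes at 30 TPM or more had negative medians themselves. All fits draw on the same 6 libraries, and eIF6 is 1 gene. With no count filter the median was -0.13 for all initiation factor genes and -0.14 for eIF3. With the effective length offset it was -0.17 for all, -0.12 for eIF2, -0.48 for eIF2B, -0.14 for eIF3, -0.16 for eIF4, -0.18 for eIF5 and -0.73 for eIF6. On log2(TPM + 1) it was -0.16 for eIF1, -0.11 for eIF2, -0.45 for eIF2B, -0.12 for eIF3, -0.14 for eIF4 and -0.71 for eIF6, and on log2(TPM + 0.1) -0.13 for eIF2, -0.48 for eIF2B, -0.14 for eIF3, -0.16 for eIF4, -0.17 for eIF5 and -0.73 for eIF6. With the length and GC correction it was -0.17 for eIF1, -0.25 for eIF2, -0.10 for eIF3, -0.19 for eIF5 and -0.29 for eIF6. With 1 library left out it was -0.17 to -0.16 for all, -0.17 to -0.15 for eIF3 and -0.11 to -0.033 for eIF4, the latter without knockout library 3.

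The log2 fold change turned positive on log2(TPM + 1) for Eif2b1 (0.0151), Eif2s1 (0.0478), Eif3b (0.0135), Eif3c (0.0506), Eif3f (0.0585), Eif3h (0.0243), Eif5b (0.0247), Eif2s3x (0.108) and Eif1ax (0.414), and on log2(TPM + 0.1) for Eif2b1 (0.0156), Eif2s1 (0.0481), Eif3b (0.0136), Eif3c (0.0510), Eif3f (0.0588), Eif3h (0.0244), Eif5b (0.0250), Eif2s3x (0.110) and Eif1ax (0.419). With the effective length offset Eif4ebp1 was at -0.0028 and Eif1ax at 0.294, and with the length and GC correction Eif2a was at -0.0051, Eif3h at 0.0062 and Eif3j2 at -0.0361. With each library left out in turn, Eif2a ranged from -0.00023 to 0.148, Eif3h from -0.0499 to 0.0132, Eif4enif1 from -0.0937 to 0.0242 and Eif2s3x from -0.0326 to 0.0220. Eif2a and Eif3h changed sign without knockout library 1, Eif2s3x without knockout library 3, and Eif4enif1 without knockout library 2, knockout library 3 or wild-type library 1.

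At these depths and with 3 libraries a group, the simulation called 6% of genes changed 1.2-fold. It changed 50 genes of all levels at each fold, whereas edgeR called 26.5% of all tested genes in the data. Its threshold was therefore stricter, and the share does not give the sensitivity for the mostly abundant initiation factor genes. Depth was not varied by itself.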
